A study of Mus musculus with 4 samples.

Results

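The data described here are those of 887 mouse genes that each had 2 or more separate measured regions on a pair of tiling arrays of intestinal DNA methylation. Probes on the autosomes that carried the same gene name and lay at most 1000 bp apart were joined into a region. A region counted as measured when at least 2 of its probes were usable, that is, without an outlier flag and well above background in at least 1 channel. This held for 14835 autosomal regions of 13922 genes, and 887 of these genes, with 1800 regions and 6799 usable probes, had 2 or more. Of the 887 genes, 864 had 2 regions, 20 had 3 and 3 had 4. Neighbouring regions of a gene were separated by a median of 6948 bp (quartiles 3572 and 18790 bp, smallest gap 1010 bp). No measured signal entered the choice beyond the demand for usable probes. A probe could be usable at 1 age alone, so a difference between the ages could help a region to enter. Of the 1800 regions, 1230 had every usable probe well above background in both channels.

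Intestinal genomic DNA was prepared from C57BL/6 mice (an inbred strain) obtained from Jackson Laboratories. DNA from mice aged 3 months was labelled with the green dye Cy3, and DNA from mice aged 32 months with the red dye Cy5. Array 1 covered chromosomes 1 to 8 and array 2 the remaining chromosomes, and both ages were hybridised to each. Each array held 1 sample of each age, and dyes were not swapped, so age and dye cannot be told apart, no p-value was computed, and no difference has a replicate check. The intestine is a mixture of cell types, and a change in methylation within a cell type and a change in the proportion of cell types cannot be told apart either. The sex and number of the animals, any pooling, the genome build and the step that selected DNA by its methylation are not stated in the labels or files used, and values are therefore reported as signal. No genetic alteration or treatment is named for either age.

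In mammals DNA methylation is placed mainly on the cytosine of CG dinucleotides (CpG). Promoters with dense CpG are mostly unmethylated in healthy tissue, whereas gene bodies are commonly methylated, and many genes start transcription from alternative promoters that can be methylated independently. During ageing, some CpG-rich promoters gain methylation and other parts of the genome lose it, and the intestinal epithelium, which is renewed throughout life by stem cells, is a tissue in which such gains are well known. A gene with several measured regions allows the parts of 1 gene to be compared within a single hybridisation.

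The probes below are shown because the main findings turn on them: the regions of Crmp1, in which both regions differed between the ages, the regions of Zfp536, Grb10, Efna5, Slc12a9 and Espn, in which 1 region did, and a pair of neighbouring regions of 1700019N12Rik and Kcnk4. Each is the probe nearest to its region's median, as given in the array files, 5′ to 3′, with every CG dinucleotide in capitals.
Crmp1 region 1: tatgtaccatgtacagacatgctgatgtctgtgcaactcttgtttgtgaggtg
Crmp1 region 2: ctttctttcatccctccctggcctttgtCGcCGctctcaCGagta
Zfp536 region 1: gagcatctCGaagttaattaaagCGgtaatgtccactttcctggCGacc
Zfp536 region 2: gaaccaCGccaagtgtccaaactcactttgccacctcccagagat
Grb10 region 1: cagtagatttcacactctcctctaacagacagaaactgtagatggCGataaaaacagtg
Grb10 region 2: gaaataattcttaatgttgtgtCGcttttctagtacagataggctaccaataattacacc
Efna5 region 1: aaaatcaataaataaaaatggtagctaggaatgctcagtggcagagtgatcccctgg
Efna5 region 2: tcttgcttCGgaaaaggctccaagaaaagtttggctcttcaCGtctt
1700019N12Rik region 2: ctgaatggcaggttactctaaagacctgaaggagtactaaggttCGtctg
Kcnk4 region 1: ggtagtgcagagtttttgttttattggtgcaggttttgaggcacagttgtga
Slc12a9 region 1: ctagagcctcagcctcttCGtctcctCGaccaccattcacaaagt
Slc12a9 region 2: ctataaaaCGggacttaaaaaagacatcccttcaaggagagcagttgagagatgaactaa
Espn region 1: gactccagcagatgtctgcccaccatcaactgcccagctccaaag
Espn region 2: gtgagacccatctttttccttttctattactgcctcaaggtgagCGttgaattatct
The probes were 45 to 60 bases long, and no sequence was shared by 2 usable probes of the 1800 regions. Of the printed probes, 4 hold no CG dinucleotide: those of Crmp1 region 1 and Kcnk4 region 1, with log2 ratios of 1.83 and 2.83, and those of Espn region 1 and Efna5 region 1, with -1.75 and -0.03.

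Each probe was given the log2 ratio of its 32-month over its 3-month signal, centred on the median of its array, and each region the median over its usable probes, with the SD over probes as the spread. A region's signal is the median over the same probes in 1 channel, so the ratio of its signals need not equal its log2 ratio. A region was called higher at 32 months when its log2 ratio was at least 1, a 2-fold difference, with every usable probe above 0, and lower in the mirrored case. The arrays held 41545 and 41577 probes, of which 70.1% to 72.5% were well above background in a given channel and none was saturated. Annotation classes (promoter, divergent promoter between a pair of genes, inside the gene, downstream) are those of the array design, given for each probe. Where classes were counted or compared, a region with both promoter and inside probes counted as promoter. Positions are those in the files, whose build is not stated.

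Of the 1800 regions, 41 were called higher at 32 months (2.28%, against 2.05% of all autosomal regions) and 13 lower (0.722%, against 0.519%). The 41 lay in 40 genes, 4.51% of the 887 against 2.18% of all autosomal genes, and the 13 in 13 genes, 1.47% against 0.553%. Most autosomal genes had a single region and so a single chance of a call, and at the level of regions the shares lay close to the background. Crmp1 was the only gene with 2 called regions, no gene had regions called in opposite directions, and 834 genes had no call. Of the 55 neighbouring pairs of a gene with a call, 1 had both regions called, and of 630 such pairs of different genes over 1000 bp apart 9 had. Without centring 31 genes were called higher and 18 lower, and after another background correction (normexp) 48 and 1. With every probe required above background in both channels, 763 genes had 2 or more regions, with 38 called higher and 14 lower.

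**Figure D1:**
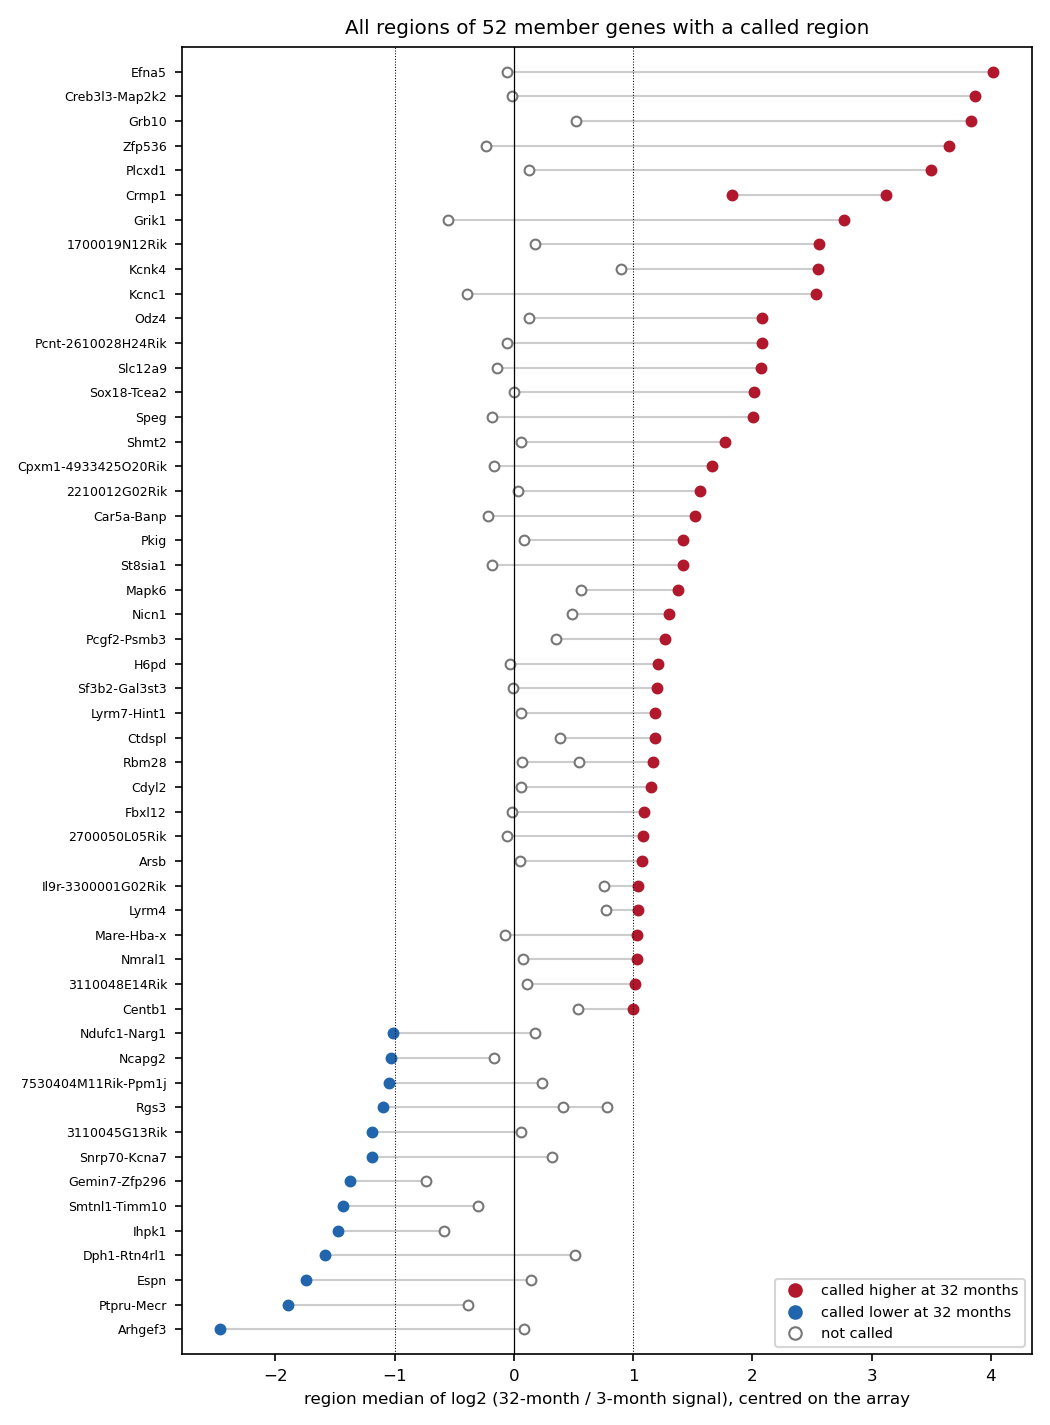
Log2 ratio of 32-month over 3-month signal (x axis, region medians centred on the array) for every region of 52 of the 53 member genes with a call (y axis), filled red where called higher, filled blue where called lower and open where not called; dotted lines mark -1 and 1. Both points of Crmp1 are red, and the 53 open points lie between -0.74 and 0.90.

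In genes with a region called higher, the called regions had a median log2 ratio of 1.42, and their 40 uncalled regions a median of 0.05 (range -0.55 to 0.90), with 23 above 0 and 7 at 0.5 or more. Of all 1800 member regions, called ones included, 952 lay above 0 and 156 at 0.5 or more. Of all 14835 autosomal regions, again with called ones, these were 7803 and 1332. The median over all autosomal regions was 0.02. In genes with a region called lower, the called regions had a median of -1.38 and the other 14 regions a median of 0.11 (range -0.74 to 0.78). Of the 54 uncalled regions in these genes, 10 (18.5%) held any probe at 1 or more from 0, against 22.7% of all uncalled autosomal regions. The difference between the regions of a gene had a median of 0.29 over the 887 genes (quartiles 0.13 and 0.56, 95th percentile 1.20), and it reached 1 in 75 genes (8.46%). When probes below background in both channels were kept as well, 1174 genes had 2 or more regions, and the median over this larger set was 0.16.

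Crmp1 encodes a cytosolic phosphoprotein of semaphorin signalling in growing axons. Its region 1, annotated promoter at chr5:37529371-37530235, had a 3-month signal of 2070 and a 32-month signal of 7040, a log2 ratio of 1.83 ± 0.77 (SD over 5 probes). Region 2, at chr5:37533140-37534350 and annotated promoter and inside, had signals of 11000 and 160000, a ratio of 3.12 ± 1.22 (7 probes). The 32-month signal was the higher in both regions and in all of their probes, and the ratio varied along them. In region 1 the probe nearest to region 2 had the smallest ratio, 0.22, with signals of 13900 and 16200. In region 2 the ratio was 1.34 and 1.13 at the first pair of probes and between 3.79 and 3.88 at the next 3, where the 3-month signal was 7640 to 11000 and the 32-month signal 106000 to 160000. Both calls were kept under all 6 alternatives that leave the region bounds unchanged, with region medians from 1.47 to 1.91 and from 2.73 to 3.55.

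The difference between 2 regions of 1 gene was largest in Efna5, which encodes ephrin-A5, a membrane-anchored ligand of Eph receptors in axon guidance and cell sorting. Region 2 (promoter and inside, chr17:62566536-62567744) had a 3-month signal of 7190 and a 32-month signal of 106000, a log2 ratio of 4.02 ± 1.77 over 5 probes, or 16.2-fold. Region 1 lies 194006 bp away inside the gene (chr17:62372280-62372529) and had signals of 702 and 615.5, a ratio of -0.06 ± 0.04 over 2 probes. All probes of the promoter region were brighter at 32 months, and both inside probes were slightly dimmer.

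Zfp536 encodes a zinc-finger repressor of neuronal differentiation, and its pair of regions are only 2162 bp apart. In region 2 (promoter, chr7:37481193-37482417) the signal was 550 at 3 months and 9930 at 32 months, a log2 ratio of 3.65 ± 1.67 over 7 probes. In region 1 (promoter and inside, chr7:37478367-37479030) it was 2215 and 2070, a ratio of -0.23 ± 0.21 over 4 probes. The ratios of the 7 probes of region 2 lay between 0.66 and 5.91 and those of the 4 probes of region 1 between -0.34 and 0.11, so they did not overlap.

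Among genes of ion channels and neurotransmitter receptors, the promoter region was the one called higher in Grik1, which encodes a kainate-type glutamate receptor subunit, and in Kcnc1, which encodes a voltage-gated potassium channel of fast-firing neurons. In Kcnk4, described below, the called region lay inside the gene and the promoter region was not called. Grik1 region 2 (promoter and inside, chr16:88178181-88179573) had signals of 6755 and 49300, a log2 ratio of 2.77 ± 1.55 over 6 probes. Its region 1, 232135 bp away inside the gene (chr16:87944714-87946045), had signals of 168 and 96.85, a ratio of -0.55 ± 0.33 over 4 probes. The call of Grik1 rests on 4 bright probes with ratios of 2.55 to 3.34, while the other 2 lay near 0, at 0.07 and 0.15. The call was lost without centring and after loess correction, at region medians of 2.63 and 2.71. Kcnc1 region 1 (promoter, chr7:46265083-46265509) had signals of 6470 and 35000, a ratio of 2.54 ± 1.01 over 3 probes. Region 2 of Kcnc1, inside the gene at chr7:46298633-46300130, had signals of 6110 and 4090 and a ratio of -0.39 ± 1.00 over 7 probes, of which 6 were below 0 and 1 above. The promoter call of Kcnc1 was lost at a region median of 2.48 when dim probes were kept.

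**Figure D2:**
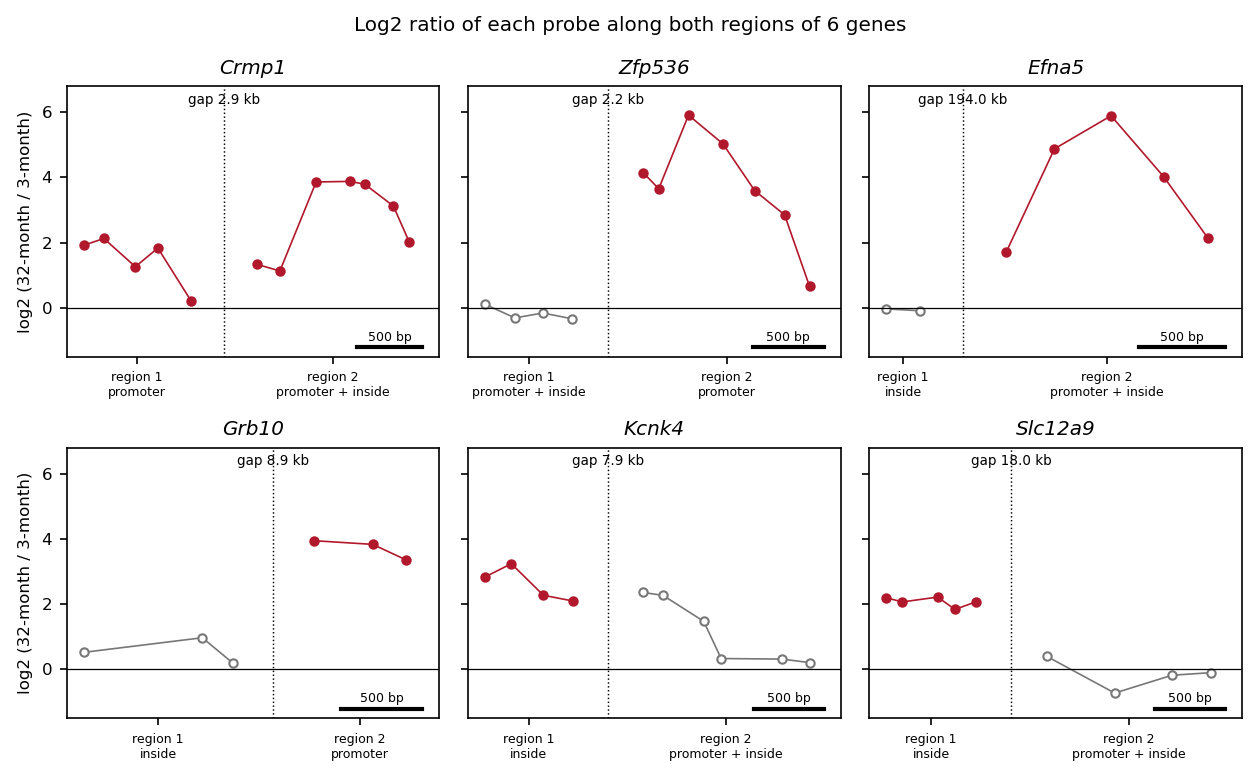
Log2 ratio of 32-month over 3-month signal (y axis) of each usable probe, against its position along both regions of Crmp1, Zfp536, Efna5, Grb10, Kcnk4 and Slc12a9 (x axis to scale within a region, with a 500 bp bar); the dotted line stands for the unmeasured gap, whose length is given. Filled red points belong to regions called higher and open points to uncalled ones, and the ratios rise or fall over short distances inside Crmp1 region 2, Zfp536 region 2, Efna5 region 2 and Kcnk4 region 2.

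Grb10 encodes an adaptor that binds the insulin receptor and dampens its signal, and it is an imprinted gene, expressed from 1 parental copy. Its promoter region 2 (chr11:11937756-11938375) had the highest 32-month signal of all regions called, 521000, against 37300 at 3 months, a log2 ratio of 3.83 ± 0.31 over 3 probes, or 14.2-fold. Region 1, 8856 bp away inside the gene (chr11:11927926-11928899), had signals of 109 and 142, a ratio of 0.52 ± 0.39 over 3 probes, 2 of them well above background at 3 months. The ratios of its 3 promoter probes lay between 3.35 and 3.94 and those of the 3 inside probes between 0.20 and 0.97. These classes are the array's annotation: of RefSeq's promoter windows, described below, region 1 held a probe and region 2 none.

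Grb10 was 1 of 6 imprinted genes among the 887 genes, and of their 13 regions 1 was called higher and none lower, beside 2.28% and 0.722% of all 1800 regions. The list median was 0.19, and 0.02 over all 1800 regions. Gnas, which encodes the stimulatory G protein alpha subunit, had 3 regions, and each had a higher 32-month signal without reaching the threshold. Their log2 ratios were 0.91 ± 0.46 (4 probes), 0.47 ± 1.01 (5 probes) and 0.83 ± 0.31 (4 probes), the last with signals of 97900 at 3 months and 183000 at 32 months. Igf2, which encodes a fetal growth factor, went the other way: its promoter region had signals of 11400 and 5550, a ratio of -0.92 ± 0.47 (3 probes), and its inside region 1790 and 1640, a ratio of -0.11 ± 0.10 (4 probes). Ppp1r9a, which encodes the actin-binding protein neurabin, had a promoter ratio of 1.82 ± 1.16 that was not called because 1 of its 3 probes was below 0, and an inside ratio of -0.03 ± 0.09. In Mest and Rtl1 no region was further from 0 than 0.19.

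Some called regions lay close to a region of another gene, and in 4 of them the neighbour was called as well. The other region of their own gene was uncalled in each of these. A nearer ratio in the neighbour was therefore close to given by this choice, and nothing is drawn from it. Kcnk4 encodes TRAAK, a mechanosensitive potassium leak channel, and 1700019N12Rik (current symbol Catsperz) a subunit of the sperm calcium channel CatSper. Kcnk4 region 1 (inside, chr19:6992729-6993409) had signals of 6675 and 32000 and a log2 ratio of 2.55 ± 0.52 over 4 probes. Only 99 bp away, 1700019N12Rik region 2 (promoter and inside, chr19:6992097-6992629) had signals of 984.5 and 5905 and a ratio of 2.56 ± 0.35 over 4 probes. The other region of 1700019N12Rik, 2235 bp away (inside, chr19:6989475-6989861), had signals of 396 and 573 and a ratio of 0.18 ± 0.38 over 3 probes. The other region of Kcnk4, 7885 bp away (promoter and inside, chr19:7001295-7002547), had a median ratio of 0.90 ± 1.01 over 6 probes, which covered a step. Its 3 probes nearest to region 1 had ratios of 2.36, 2.27 and 1.47 and the other 3 ratios of 0.33, 0.32 and 0.21, so that part of this region was higher at 32 months although the whole was not called.

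Slc12a9, a member of the cation-chloride cotransporter family, had its called region inside the gene and not at its promoter. Region 1 (inside, chr5:137544341-137545031) had signals of 19200 and 76000, a log2 ratio of 2.07 ± 0.15 over 5 probes. Region 2 (promoter and inside, chr5:137562987-137564211) lies 17955 bp away and had signals of 323 and 321.5, a ratio of -0.14 ± 0.46 over 4 probes. The 5 inside probes lay between 1.84 and 2.22 and did not overlap the promoter probes, which lay between -0.73 and 0.40. A region named for Trip6, 309 bp from Slc12a9 region 1, was called higher too, at 2.16 ± 0.27 over 2 probes. Nicn1 region 2, named here after its values were seen, stood 228 bp from a called region of EG434437, with ratios of 1.30 and 1.36.

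Of the 54 called regions, 12 had a measured region of another gene within 1000 bp, and in 4 of these 12 that neighbour was called in the same direction. The called regions of 1700019N12Rik and Kcnk4 are each other's neighbour, so their pair enters this count from both sides. Over all neighbouring regions of different genes at most 1000 bp apart, 6 of 58 pairs with a call had both regions called. That count is by pair and not by called region, so the shares are not alike and were not compared. The comparison with other genes was chosen after values were seen.

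Divergent promoters, which the array design names by the pair of genes they serve, also had 1 called region beside an uncalled one. Sox18-Tcea2, named for an endothelial transcription factor and a transcription elongation factor, had signals of 4400 and 22800 in region 1 (chr2:181601039-181601824), a log2 ratio of 2.01 ± 0.42 over 4 probes. Its region 2, 7241 bp away (chr2:181609066-181609518), had signals of 387.5 and 408 and a ratio of 0.00 ± 0.14 over 2 probes. Pcgf2-Psmb3, named for a Polycomb protein and a proteasome subunit, had signals of 4315 and 7310 in region 1 (chr11:97516491-97517305), a ratio of 1.27 ± 0.60 over 4 probes. Its region 2, 1460 bp away (chr11:97518766-97519401), had signals of 183.5 and 222 and a ratio of 0.35 ± 0.16 over 4 probes. The probes of both regions did not overlap in Sox18-Tcea2, whereas they did in Pcgf2-Psmb3, whose lowest called probe was at 0.26 and highest other probe at 0.48.

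Pcnt-2610028H24Rik, named for the centrosome protein pericentrin and an unnamed transcript, showed how uneven a called region could be. Region 2 (chr10:75891970-75892659) had signals of 154.5 and 2035 and a log2 ratio of 2.08 ± 2.53 over 4 probes that ranged from 0.07 to 4.96, and without centring its call was lost at 1.94. Speg, which encodes a kinase of striated muscle, had signals of 1070 and 4340 at its promoter (promoter and inside, chr1:75257433-75258589), a ratio of 2.00 ± 1.12 over 5 probes. Its inside region (chr1:75273378-75274887) had signals of 526 and 465, a ratio of -0.18 ± 0.22 over 7 probes, and the probes of the pair of regions did not overlap.

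Further genes with a large difference between their regions are named here after their values were seen. Plcxd1, a phospholipase C domain protein, had a log2 ratio of 3.50 ± 0.19 over 3 probes in region 2 (chr5:110340041-110340653) and 0.13 ± 0.19 over 2 probes in region 1, only 1091 bp away, with signals of 1690 and 19400 against 475.5 and 510.5. Creb3l3-Map2k2, named for a transcription factor of liver and intestine and a MAP kinase kinase, had signals of 379.7 and 3030 in region 1 (chr10:80502153-80502329), a ratio of 3.87 ± 1.65 over 2 probes, of which 1 was well above background at 3 months, and -0.02 ± 0.38 over 3 probes in region 2. Odz4 (current symbol Tenm4), a teneurin of neuronal wiring, had signals of 2600 and 33881.5 at its promoter, a ratio of 2.08 ± 2.10 over 4 probes, and lost that call with dim probes kept (0.24) and with normexp (2.17). Shmt2, the mitochondrial serine hydroxymethyltransferase, was the only gene called in a downstream region, with signals of 425.5 and 1165 and a ratio of 1.77 ± 0.79 over 8 probes, against 0.06 ± 0.19 over 6 probes at its promoter.

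Regions with a lower signal at 32 months were fewer, and they depended more on how background was treated: with normexp 1 of the 13 genes, Arhgef3, remained. Arhgef3 encodes a guanine nucleotide exchange factor. Its region 2 (inside, chr14:26162667-26163234) had signals of 4360 at 3 months and 718 at 32 months, a log2 ratio of -2.46 ± 1.43 over 3 probes, or 5.51-fold lower. Its region 1 (promoter and inside, chr14:26064177-26065194) had signals of 173 and 207 and a ratio of 0.08 ± 0.58 over 6 probes. The call of Arhgef3 rested on 2 probes at -2.46 and -2.51, the third was at -0.01, and it was lost at -0.09 when dim probes were kept.

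Espn encodes espin, an actin-bundling protein of microvilli and stereocilia. Region 1 (promoter and inside, chr4:150972360-150973710) was the brightest of the regions called lower, with signals of 204000 and 56800 and a log2 ratio of -1.75 ± 0.68 over 9 probes. Region 2 (promoter, chr4:150979844-150981148) had signals of 1310 and 1270 and a ratio of 0.14 ± 0.36 over 5 probes. The first 5 probes of region 1 had 3-month signals of 204000 to 418000 and ratios of -1.75 to -2.10, and the next had 2550 and -0.63. With normexp the region median was -1.26 and the call was lost.

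Rgs3, a regulator of G protein signalling, had 3 regions whose ratios lay on both sides of 0. Region 2 (promoter and inside, chr4:62105296-62106385) was called lower, with signals of 1210 and 762 and a log2 ratio of -1.10 ± 0.61 over 7 probes. Region 1 (promoter and inside, chr4:62046090-62046527) had a ratio of 0.41 ± 0.96 over 2 probes, and region 3 (inside, chr4:62159425-62160973) signals of 339 and 1060 and a ratio of 0.78 ± 0.86 over 7 probes. Every probe of region 2 was lower at 32 months, whereas 6 of the 7 probes of region 3 were higher. With normexp the ratio of region 2 was -0.33 and its call was lost. Dph1-Rtn4rl1, named for a diphthamide synthesis protein and a Nogo receptor relative, had signals of 22750 and 9670 in region 2 (chr11:75009177-75009908), a ratio of -1.58 ± 0.58 over 4 probes, and 117 and 189 in region 1, a ratio of 0.51 ± 0.79 over 3 probes. Gemin7-Zfp296, named for a subunit of the SMN complex and a zinc-finger protein, had signals of 20300 and 4350 in region 2 (chr7:18735635-18736290), a ratio of -1.38 ± 1.43 over 4 probes, and both of its regions lay below 0, since region 1 had a ratio of -0.74 ± 0.54 over 3 probes. With normexp the 2 called regions stood at -0.66 and -0.85 and were no longer called.

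The signals of called and uncalled regions come from different probes, whose brightness depends on their sequence, and they are given as a description. The 41 regions called higher had a median signal of 2600 at 3 months and 9930 at 32 months, and the 40 other regions of the same genes 407.5 and 453. In 31 of the 39 genes with an uncalled region beside the called one, the called region had the higher 3-month signal, with a median difference of 2.44 on the log2 scale. The 13 regions called lower had medians of 4360 and 1102, against 532.5 and 702 in the other 14 regions of their genes, and in 10 of 13 genes the called region had the higher 3-month signal, a value that itself enters the call. Of the 54 uncalled regions, 1 had a 3-month signal above 2600. Probe composition moved with this: regions called higher held 1.26 CG dinucleotides per probe, the other regions of these genes 0.922 and all 1800 regions 0.931, and its part in the result was not tested.

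**Figure D3:**
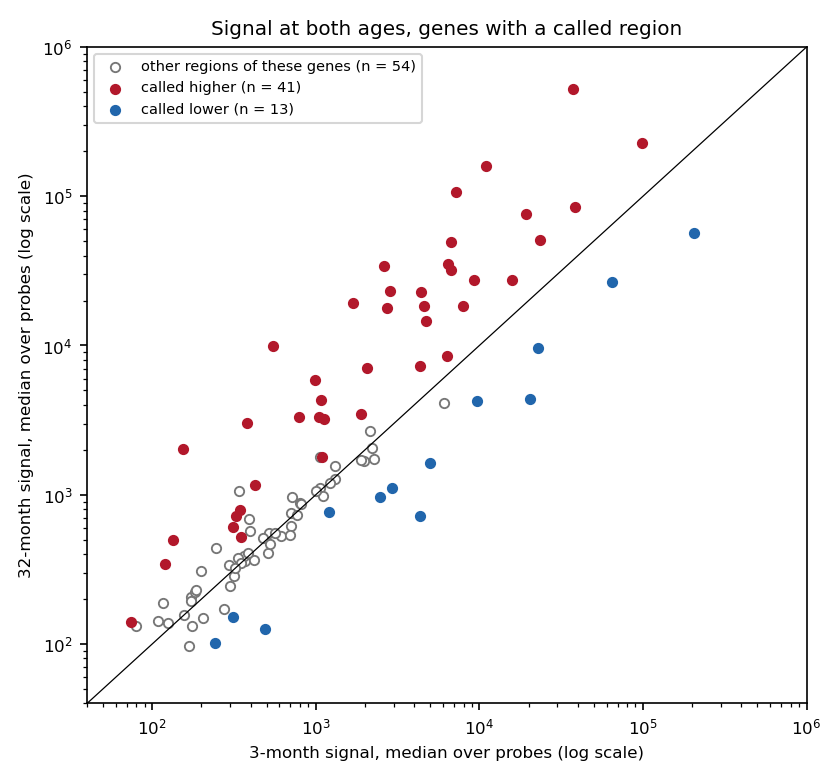
Signal at 3 months (x axis) against signal at 32 months (y axis), both on log scales and as medians over usable probes, for every region of the 53 genes with a call; the line marks equal signals. The 54 uncalled regions (open) lie along the line and mostly below the 2600 that is the median 3-month signal of the 41 regions called higher (red).

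The share of regions called rose with 3-month signal in these genes as it did on the arrays as a whole. The 3-month signal also enters the ratio, so the calls, above all the lower ones, are not independent of this sorting. Among autosomal regions with a 3-month signal above 1170, the brightest 25%, 24 of 423 member regions were called higher (5.67%, against 4.69% of all autosomal regions as bright) and 10 lower (2.36%, against 1.48%). Among the dimmest 25%, up to 228, 4 of 463 were called higher (0.864%, against 1.02%) and none lower (against 0.188%). The SD of the region log2 ratios was 0.69 among the brightest 25% and 0.36 to 0.40 in the other 3 groups of equal size, so bright regions also varied more.

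The 3 genes with 4 regions had no call in any of them. Of the 20 genes with 3 regions, Rgs3 and Rbm28 had 1 called region each, and the first 2 of the 20 by alphabet, given below with the genes of 4 regions, had none. Lpp, a LIM protein of focal adhesions, had 4 regions over a long gene, with log2 ratios of 0.32 ± 0.48, -0.09 ± 0.25, 0.26 ± 0.36 and 0.16 ± 0.33, although their 3-month signals ranged from 81.2 to 30800. Plec1 (current symbol Plec), which encodes the cytoskeletal linker plectin, had 4 regions of 6 to 16 probes. Its ratios were -0.11 ± 0.30, 0.22 ± 0.34, 0.21 ± 0.34 and, in the brightest region with signals of 11200 and 24700, 0.45 ± 0.56. Pde4a, a cyclic AMP phosphodiesterase, had 4 regions with ratios of 0.40 ± 0.39, 0.00 ± 0.35, 0.08 ± 0.37 and 0.14 ± 0.30. In 5730410E15Rik the 3 ratios were -0.31, 0.21 and 0.50 and in 9030025P20Rik they were -0.41, 0.61 and 0.19. In these 5 genes no region lay further from 0 than 0.61.

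Regions of 1 gene could differ far more in brightness than in the ratio between the ages. Brightness is the mean of the log2 signals of both ages, and it depends on each probe's sequence as well as on the amount of DNA, so a difference between regions is not a difference in methylation by itself. Isg20l1 (current symbol Aen), an apoptosis-enhancing nuclease, had the largest difference among regions of at least 3 probes, 10.4 on the log2 scale: signals were 289000 and 288000 in promoter region 1 (chr7:78760794-78761864) and 290.9 and 287 in region 2 (chr7:78768460-78769783). The log2 ratios of its regions were 0.37 ± 0.25 and 0.35 ± 0.82, so the regions differed in brightness at both ages and little in their ratio. Zfp521, which encodes a zinc-finger protein of stem cells, had signals of 198500 and 209500 in region 1 and 228.5 and 890 in region 2, with ratios of 0.22 ± 0.24 and -0.15 ± 1.74. Slc24a1-2010321M09Rik, named for a photoreceptor exchanger and an Integrator subunit, had 214000 and 140000 in region 1 and 214 and 149.5 in region 2, with ratios of -0.39 ± 0.78 and -0.09 ± 0.70.

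In 3 other genes the bright region lay well away from 0 and 2 of these were not called. Grb10, described above, had a brightness difference of 10.1. Il23a-Usp52 (current symbols Il23a and Pan2), named for a cytokine subunit and a deadenylase, had signals of 237000 and 50500 in region 1 (chr10:127701039-127701948), a log2 ratio of -1.69 ± 1.28 over 5 probes, of which 1, at 1.00, lay above 0. Cldn10, which encodes a tight-junction claudin, had signals of 31600 and 192000 in region 2 (chr14:117989503-117990334), a ratio of 2.74 ± 2.01 over 3 probes. Its lowest probe stood at -0.54 and the other 2 at 2.74 or more. The second regions of both genes were dim, with 3-month signals of 124 for Il23a-Usp52 and 116.5 for Cldn10, and ratios of 0.26 ± 0.71 and 0.24 ± 0.61.

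Promoter and inside regions of 1 gene could be compared in 351 genes, with regions annotated promoter and inside counted as promoter. The promoter had the higher log2 ratio in 201 of them (57.3%), and the median difference, promoter minus inside, was 0.06 (quartiles -0.19 and 0.38), small beside the spread over genes. In 19 genes the promoter was higher by at least 1 and in 15 lower by at least 1. A promoter region was called higher in 13 of the genes and an inside region in 6, and lower in 2 and 3. Counted by region over all autosomes, 2.03% of promoter and 2.07% of inside regions were called higher, and 0.424% and 0.75% lower. Across the 351 genes the ratios of promoter and inside region had a Pearson correlation of 0.10 (Spearman 0.15), over pairs that share an array and a hybridisation. With regions split at gaps over 500 bp the median difference was 0.01.

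Promoter regions were brighter than inside regions of the same gene by a median of 0.76 on the log2 scale, or 1.69-fold (quartiles -0.92 and 2.22), and in 218 of 351 genes (62.1%). Promoter probes held more CG dinucleotides, 1.18 per probe against 0.672. In the 229 genes with more CG per probe at the promoter the brightness difference was 1.25, and in the 99 with fewer it was -0.46. The difference was 0.24 with normexp and 0.50 with probes above background in both channels, and it turned to -0.14 with regions split at gaps over 500 bp, so its direction depends on how regions are drawn.

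**Figure D4:**
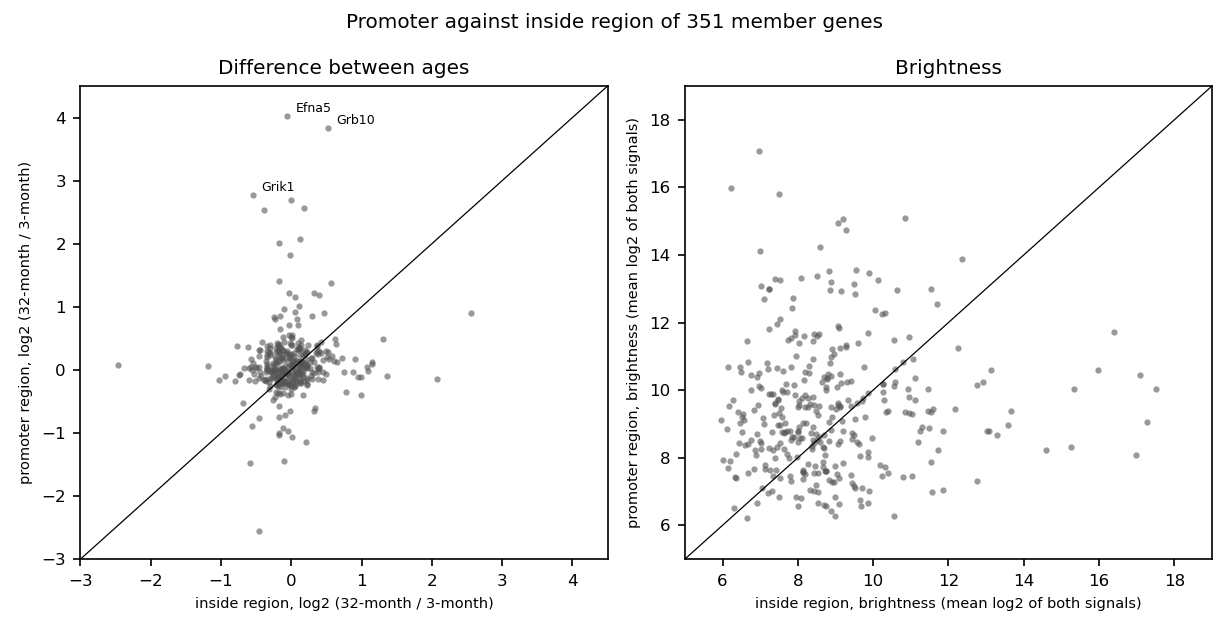
Promoter region (y axis) against inside region (x axis) of the 351 member genes that have both, as log2 ratio of 32-month over 3-month signal (left) and as brightness, the mean log2 signal of both ages (right); each point is a gene and the line marks equality. Promoter regions include those annotated promoter and inside. On the left most points gather around 0 with arms along both axes and few along the line, with Efna5, Grb10 and Grik1 at the top; on the right 218 points lie above the line.

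By annotation class, 21 of 729 promoter regions of these genes were called higher (2.88%, against 2.03% of all autosomal promoter regions), 10 of 486 divergent promoter regions (2.06%, against 2.59%), 9 of 501 inside regions (1.80%, against 2.07%) and 1 of 65 downstream regions (1.54%, against 1.03%). Lower calls were found in 3 promoter (0.412%, against 0.424%), 7 divergent promoter (1.44%, against 1.2%) and 3 inside regions (0.599%, against 0.75%). With dim probes kept (1174 genes, 2389 regions) the promoter share of higher calls was 1.64%. With regions split at gaps over 500 bp (1163 genes, 2387 regions) the inside share was 4.87%. The shares over all autosomal regions were not computed under these settings, so neither value has a background beside it.

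Annotated classes were set beside transcription starts through RefSeq's promoter windows of assembly GRCm38.p6, which run from 250 bases before to 50 bases after a gene's start, by exact matches of probe sequences to them. Of 708 member genes with a window, 380 had a probe inside a window in 1 region, 115 in 2 or more and 213 in none. Regions with such a probe were called higher in 13 of 610 (2.13%) and the other regions of these genes in 21 of 824 (2.55%), against 2.05% of all autosomal regions. Lower calls were 7 of the 610 and 6 of the 824, against 0.519% of all autosomal regions. In Crmp1 both regions held such probes, 1 in region 1 and 2 in region 2, and in Efna5, Plcxd1 and 1700019N12Rik the called region did. In Zfp536, Grb10, Slc12a9, Kcnk4, Shmt2 and Arhgef3 the uncalled region held such probes and the called region held none.

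Likeness between probes faded over short distances. Adjacent probes inside a member region at most 200 bp apart had a Pearson correlation of their log2 ratios of 0.52 (2885 pairs), which was 0.83 in the 499 pairs bright enough in both probes (mean log2 signal of 10 or more, a limit set after values were seen). It was 0.29 at 201 to 500 bp (1730 pairs) and 0.07 at 501 to 1000 bp (365 pairs). Facing probes of adjacent regions of different genes gave 0.38, 0.29 and 0.07 at the same distances (340, 506 and 191 pairs). Beyond 1000 bp, facing probes of 2 regions of the same gene gave values between -0.21 and 0.12 in 5 distance classes. Those of different genes gave -0.34 up to 2000 bp (32 pairs) and -0.13 from there to 5000 bp (195 pairs). They gave 0.03 from there to 20000 bp (2181 pairs) and 0.01 from there to 100000 bp (5940 pairs). For adjacent probes inside member regions the Spearman correlations were lower: 0.28 up to 200 bp, 0.14 at 201 to 500 bp and 0.03 at 501 to 1000 bp. Their Pearson correlation in bright pairs was 0.62 at 201 to 500 bp (240 pairs) and -0.02 at 501 to 1000 bp (38 pairs). In genes with 1 region, adjacent probes 501 to 1000 bp apart had a Pearson correlation of 0.18 (3008 pairs). All these pairs share an array, a hybridisation and often base composition, and genes with several regions enter more than once.

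**Figure D5:**
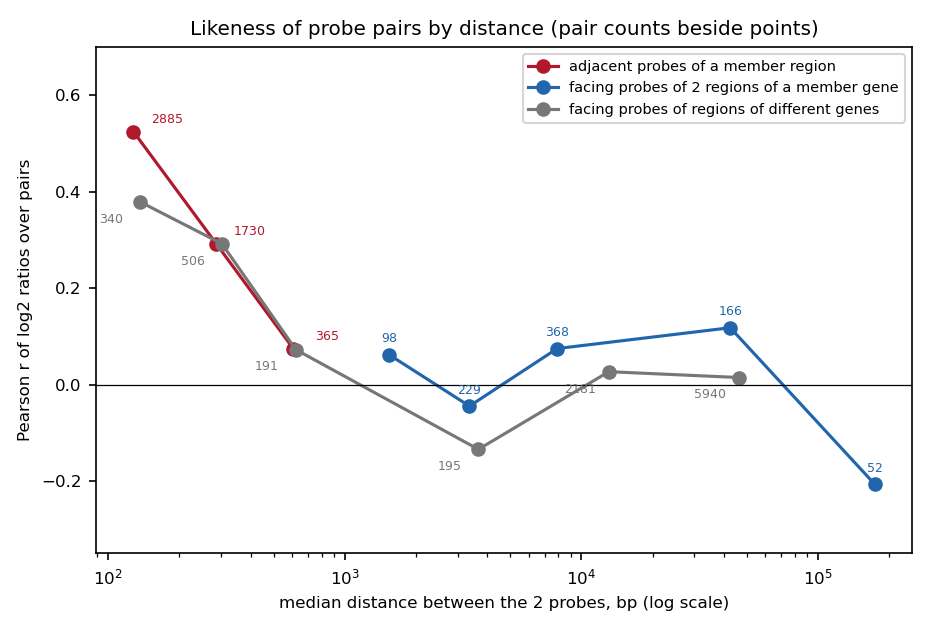
Pearson correlation of probe log2 ratios (y axis) against the median distance between the probes of a pair (x axis, log scale), for adjacent probes of a member region (red), facing probes of neighbouring regions of a member gene (blue) and facing probes of neighbouring regions of different genes (grey); numbers are pair counts, and classes under 50 pairs are left out. The red and grey lines fall from 0.52 and 0.38 to 0.07 by about 600 bp, and the blue points lie on both sides of 0. Beyond 1000 bp the grey points lie between -0.13 and 0.03.

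Region medians gave the same picture. Over all 913 pairs of neighbouring regions of a member gene the Pearson correlation of log2 ratios was 0.06, and by gap it was -0.04 up to 2000 bp (98 pairs), 0.15 from there to 5000 bp (229), 0.09 from there to 20000 bp (368), -0.01 from there to 100000 bp (166) and -0.12 above (52). Over 12880 pairs of different genes more than 1000 bp apart it was 0.02. For gaps up to 5000 bp together it was 0.09, and 0.20 with normexp, 0.17 with a 500 bp and 0.17 with a 2000 bp limit within regions. In 39 of the 913 pairs (4.27%) the medians were at least 1 apart with no overlap of probes, against 3.91% of pairs of different genes. Pairs over 100000 bp apart were 1 or more apart in 11 of 52 (21.2%), among them Efna5 and Grik1, and pairs of different genes at such distances in 10.7%. By class, pairs of inside regions had a correlation of 0.26 (73 pairs) and none 1 or more apart, promoter and inside pairs 0.08 (353), promoter pairs 0.12 (169) and divergent promoter pairs -0.04 (243).

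Within called regions of at least 5 probes, the probe with the smallest difference lay at an end of the region in 9 of 14, among them Crmp1 region 1 and Zfp536 region 2. The share was 64.3%, against 63.6% of all called autosomal regions of that size and 40.3% of uncalled ones, whose probes were turned to the sign of their median. This count was made after values were seen.

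Gene lists of pathways and cell types were described by counts and medians. Over all 887 genes 4.51% had a region called higher and 1.47% lower, against 2.18% and 0.553% of all autosomal genes, and lists of so few genes cannot be set apart from these shares. Of 15 developmental transcription factor genes 1, Sox18-Tcea2, had a region called higher, with a median log2 ratio of 0.00 over 30 regions. Hoxa9 had a promoter and inside region of signals 33382 and 20631.5 and a ratio of -0.80 ± 0.07 over 4 probes, and a promoter region of 3100 and 3915 and 0.37 ± 1.24. Of 7 ion channel and receptor genes 3 (Grik1, Kcnk4, Kcnc1) had a region called higher and 1 (Snrp70-Kcna7) lower, with a median of 0.28 over 14 regions and a median largest difference between regions of 1.51, against 0.29 over the 887 genes. None of the enteric neuron and glia markers was among the 887 genes.

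Of 4 DNA methylation and chromatin genes 1, Pcgf2-Psmb3, had a region called higher, beside 4.51% of the 887 genes. Dnmt3a, which encodes a de novo DNA methyltransferase, had signals of 3118 and 16718.5 at its promoter (chr12:3890751-3891484) and a log2 ratio of 1.22 ± 1.60 over 4 probes. It was not called: a pair of adjacent probes had ratios of 2.60 and 2.16 and the others 0.27 and -0.80. Of 4 signalling ligand genes none was called, and Bmp4, named after its values were seen, had a ratio of 2.69 ± 1.70 over 6 probes at its promoter with a lowest probe at -0.51, and -0.01 ± 0.36 over 6 probes 1940 bp away inside the gene. Of 3 cadherin and axon guidance genes 1, Efna5, was called higher. None of the 2 intestinal epithelium and 4 smooth muscle and stroma genes had a call, with medians of -0.02 and -0.06. So few genes without a call cannot be set apart from the 4.51% of the 887 genes called higher and 1.47% called lower. Nothing about these cell types follows from them. Cdx1-Pdgfrb, named for a pair of genes, stands in both lists and among the developmental factors, so these medians share its regions. The other epithelium entry, 0610008F07Rik-Hnf4a, is a divergent promoter of a pair as well.

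The threshold left 15 regions beyond 1 or below -1 without a call because a probe crossed 0, 9 above and 6 below. Cldn10 and 1700037H04Rik, at 2.74 and -2.55, were the furthest out. The called regions nearest to the threshold were Centb1 region 2 (1.00 ± 1.11) and 3110048E14Rik region 1 (1.01 ± 1.01), and nearest below it were Hyal1 region 2 (1.00 ± 1.47) and Coasy region 2 (1.00 ± 0.23). Calls that held under all 6 alternatives, or all that measured the region, numbered 19 of 54. All 19 were called higher, and besides both regions of Crmp1 they included Efna5, Grb10, Zfp536, Kcnk4, 1700019N12Rik, Slc12a9, Speg, Sox18-Tcea2, Pcgf2-Psmb3 and Plcxd1.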

How the data were processed

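Agilent Feature Extraction 9.1.3.1 quantified the images, as the submitters' processing notes state. Both channels' deposited processed signals (intensity) were used; per the file headers they had been background-subtracted and detrended, with a linear dye normalisation and no lowess. The authors' value table equalled them in 100% of spots (to 1 part in 1000). Control spots, 271 probes without a position and 11 and 28 probes with outlier flags on arrays 1 and 2 were left out. Before centring, the median log2 ratio was 0.0044 on array 1 and -0.14 on array 2, and array and chromosome go together. Offsets written after some gene names were removed before probes were joined. With 1 sample per age and array there is no test, and precision is limited by the number of probes and by signal over background. Current symbols came from RefSeq's GRCm38.p6 table for 847 of 887 names. The script was tested on simulated data.

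Members, gene lists and the naming rule were chosen with earlier results of these data known. Named are genes with 2 or more called regions (at most 15), the 12 largest differences between a called and another region of at least 3 probes, the 5 genes with most regions, the 6 largest brightness differences and called genes of the lists, plus Gemin7-Zfp296 and Dnmt3a by the last part of that rule; other names were chosen after values were seen. 1 called gene of the rule is not reported here. Alternatives were no centring, loess on brightness, normexp with offset 50 on mean and background intensity, dim probes kept, both channels above background, the mean over probes, gap limits of 500 and 2000 bp, at least 3 probes, and the value table. Tools were Python 3.11.15, pandas 2.3.3, numpy 2.4.6, statsmodels 0.14.6, matplotlib 3.10.9, R 4.3.3 and limma 3.58.1.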

Additional observations from a re-analysis of the deposited data

How the results depend on the processing

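The value table repeated every result, and no alternative gave a gene with regions called in opposite directions. Genes called higher numbered 40, and 72 of 1163 with a gap limit of 500 bp and 21 of 508 with at least 3 probes. Genes called lower numbered 13, and 1 with normexp, 8 with dim probes kept, 25 with the 500 bp limit and 8 with at least 3 probes. Genes with 2 or more regions called the same way numbered 1, and 2 with normexp, 2 with both channels above background, 3 with the mean over probes and 4 with the 500 bp limit. The median largest difference within a gene was 0.16 with dim probes kept, over 1174 genes. With the 500 bp limit, promoter minus inside was 0.0086 in log2 ratio and -0.14 in brightness, and 4.87% of inside regions were called higher. That brightness difference was 0.24 with normexp and 0.50 with both channels above background, and 1.64% of promoter regions were called higher with dim probes kept. The matching shares over all autosomal regions were not computed under the alternatives. The correlation of neighbouring regions up to 5000 bp apart was 0.20 with normexp and 0.17 with either the 500 bp (0.166) or the 2000 bp (0.174) limit, and beyond 5000 bp, where it was 0.046, it was -0.026 with normexp. Region 2 of Arsb turned from 1.07 to -0.046 with normexp, where 1 of its 2 probes was above background at 3 months. The causes were not tested. Of the 54 calls, 45 were kept without centring, 46 after loess, 30 with normexp, 39 with dim probes kept, 49 of the 50 measured in both channels and 51 with the mean. No paired analysis was possible because each age had 1 sample per array, and for the same reason no sample could be left out.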
